A study of Mus musculus with 22 samples.

Results

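Gpatch2, Exosc10, Kmt5b, Zdhhc7, Slc43a1 and Chid1, 6 of the 17023 genes with transcripts in the table, were selected because an earlier look at the same counts had shown transcripts of each that were present in one genotype and listed at 0, or lower, in the other. Their members are the 48 transcripts that GENCODE mouse release M39 assigns to them and that the table lists (Gpatch2 8, Exosc10 7, Kmt5b 15, Zdhhc7 5, Slc43a1 5, Chid1 8), out of 62492 transcripts in all and out of 198 that the release holds for these genes. Of the 48, 26 are annotated as protein-coding, 13 as retained introns, 5 as targets of nonsense-mediated decay (NMD) and 4 as transcripts of coding genes without a defined reading frame. Since the difference between NFKBIE-ko and NFKBIE-wt chose the genes, its values are given for them as a description, without a p.

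The cells were those of TCL1-355 TKO, a mouse leukemia line from the Eμ-TCL1 transgenic model of CLL, in which a TCL1 transgene is expressed in B-cells. All groups carried the engineered lesions of this line, and the NFKBIE-ko cells had in addition been edited with Cas9 at Nfkbie, the gene of the inhibitor IκBε, whereas the NFKBIE-wt cells had been through a mock edit. Each genotype was first propagated by itself in C57BL/6 mice and then injected into the peritoneal cavity (PC) of further C57BL/6 mice. The authors name 2 mice for the first passage, which may mean 1 per genotype. If so, genotype and mouse of first passage cannot be told apart in the PC and spleen samples. From the recipients, 4 PC and 4 spleen samples per genotype were taken. A further 3 samples per genotype came from spleen cells of different mice, kept in separate cultures. PC and spleen samples of a genotype came from one set of recipients, and which of them share a mouse is not given in the sources used here. Nor is it given whether the samples of a genotype share 1 edited population. The PC and spleen samples were not purified, so that they hold cells of the host. The recipients of edited cells were 2 to 3 months old.

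Most libraries behaved as labelled, and 3 stood apart. The total estimated count per library lay between 24036386 and 26580957. Nfkbie itself ranged from 67.8 to 92.6 CPM (estimated counts divided by the TMM-scaled library size) in the PC of NFKBIE-wt and from 47.1 to 65.1 in that of NFKBIE-ko, without overlap. In the spleen, replicates in order, it was 72.8, 71.4, 76.0 and 123 CPM in NFKBIE-wt and 121, 54.8, 110 and 113 CPM in NFKBIE-ko. All NFKBIE-ko spleens but replicate 2 thus lay above all NFKBIE-wt spleens but replicate 4. The library labelled NFKBIE-wt spleen replicate 4 held 6.67 CPM of the 7 erythroid markers together, against 278 to 2042 in the other NFKBIE-wt spleens, and its gene levels correlated best with a culture, NFKBIE-wt in vitro replicate 1 (r = 0.984 over 9790 genes). In replicate 3 of the libraries labelled NFKBIE-wt in vitro the erythroid markers held 1410 CPM, against 11.4 and 20.5 in the other NFKBIE-wt cultures, and it correlated with the other 3 NFKBIE-wt spleens at 0.964 to 0.984. Replicate 2 of the same label correlated at 0.982 to 0.986 with the NFKBIE-ko cultures and at 0.951 with NFKBIE-wt in vitro replicate 1. Its Nfkbie, at 139 CPM, was nevertheless above the 47.5 to 59.0 CPM of the NFKBIE-ko cultures. In NFKBIE-wt in vitro replicates 1 and 3, Nfkbie was 113 and 53.7 CPM, the latter within that range. NFKBIE-ko spleen replicate 2 had 58.7 CPM of the erythroid markers, against 633 to 913 in the other NFKBIE-ko spleens, and correlated with these at 0.954 to 0.969. No library was moved to another group. Many, but not all, of the values that rest on the 3 libraries that stood apart are given with and without them. In the PC, the 10 myeloid markers summed to between 3597 and 5196 CPM in NFKBIE-ko and between 551 and 1584 in NFKBIE-wt, the 10 T-cell markers to between 397 and 469 against 247 and 323, and the 8 granulocyte markers to between 28.9 and 44.6 against 127 and 398. Fewer cells of a type and less RNA per cell cannot be told apart in such samples, and the part of host cells in the values below was not tested.

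A gene gives rise to different transcripts through other first exons, skipped exons, introns that are kept and other ends. Some of these change the protein, some change only the untranslated region, and some carry an early stop codon and are degraded by NMD. The share of a transcript in its gene, in percent of the gene's estimated counts in a library, follows such choices apart from how strongly the gene is expressed. SALMON estimates it by dividing the reads that fit several transcripts, so the bases in which transcripts differ decide how well their shares can be told apart. These bases are shown first.

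In Gpatch2 (chr1:186947676-187083904, forward strand of GRCm39), a gene for a nuclear protein with a G-patch, a domain that binds RNA helicases, the canonical transcript Gpatch2-202 has 10 exons and encodes 527 residues. Gpatch2-208 (196 residues) begins 40 bases before the end of exon 2 of Gpatch2-202, and from there its 3984 bases are wholly contained in it. Gpatch2-206 (504 residues) differs from Gpatch2-202 in its first exon alone, and it too contains Gpatch2-208. Gpatch2-204 (490 residues) skips the exons of 40 and 71 bases, and Gpatch2-203, without a defined reading frame, ends in a 1200-base exon after exon 5. The coding junctions with and without the exon pair are shown because they separate Gpatch2-204 from the rest. Capitals mark the bases downstream of the junction here and in the pairs that follow.
Gpatch2-202, into the exon pair: cgcccatcgccatgaCCACTGGTTTAGCCC
Gpatch2-204, exon pair skipped: cgcccatcgccatgaGCAGACAAGCATGCA

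Exosc10 (chr4:148642886-148666858, forward strand) encodes a 3′ to 5′ exoribonuclease of the nuclear RNA exosome, which trims and degrades RNA. Exosc10-201, the canonical transcript with 25 exons, encodes 887 residues. Exosc10-203, annotated as an NMD target with a frame of 618 residues, keeps 60 bases of intron 15 at the end of exon 15. These junctions are shown because the kept bases alone set the NMD transcript apart inside the gene.
Exosc10-201, spliced: ctgcctagcgccgagAGATTGGAGAATGAT
Exosc10-203, intron start kept: ctgcctagcgccgagGTACAGTGTCACGGC

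Kmt5b (chr19:3817362-3868322, forward strand) encodes a methyltransferase of histone H4 lysine 20. Kmt5b-206 has 13 exons, and Kmt5b-205 lacks one of them, a 60-base exon of the 5′ untranslated region, so both encode the same 883 residues. Kmt5b-213 (860 residues) has another first exon and lacks a 69-base coding exon, and Kmt5b-204 (394 residues) ends early.

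Zdhhc7 (chr8:120807629-120828267, reverse strand) encodes a palmitoyltransferase of the Golgi, which attaches a fatty acid to cysteines of other proteins. Zdhhc7-201, the canonical transcript, has 8 exons and 308 residues. Zdhhc7-205, a retained intron transcript of 831 bases, keeps 82 bases of the intron before exon 4. The junctions at that exon are shown because these bases carry the only difference that this short transcript has.
Zdhhc7-201, spliced: atgctcactgacccgGGTGCTGTCCCCAAA
Zdhhc7-205, intron kept: aatctgtgtgcacagGGTGCTGTCCCCAAA

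Slc43a1 (chr2:84669194-84693938, forward strand) encodes LAT3, a carrier of large neutral amino acids across the plasma membrane. Its full-length transcripts differ at their start. Slc43a1-201 (607 residues) and Slc43a1-202 (564 residues) splice different first exons to the same second exon, and Slc43a1-203 (590 residues) begins upstream of that exon and reads into it without a splice. Slc43a1-206 is a short coding fragment inside the same region. The start of the shared exon is shown with what precedes it.
Slc43a1-201, spliced first exon: gtttgtcggggacagAGTCTCGGCCACCAT
Slc43a1-203, unspliced first exon: tctgtttctctgcagAGTCTCGGCCACCAT

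Chid1 (chr7:141073049-141120526, reverse strand) encodes a protein with a chitinase domain. Chid1-207 (393 residues, canonical) and Chid1-209 (396 residues) have the same 13 exons and the same 4979 bases, and their annotated start codons lie 9 bases apart. The bases from the first start codon on, chr7:141112822-141112851, are shown with both start codons in capitals.
Chid1-209 and Chid1-207: ATGcctgccATGtggccacttcttcatgtc
Chid1-210, an NMD target of the same gene, skips a 62-base exon, and Chid1-205 is an incomplete coding transcript.

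For each gene, the transcript with the largest difference in share between the genotypes, averaged over PC, spleen and culture, was paired with the one that differed most in the opposite direction. The pairs were Gpatch2-202 with Gpatch2-208, Exosc10-201 with Exosc10-203, Kmt5b-205 with Kmt5b-206, Zdhhc7-205 with Zdhhc7-201, Slc43a1-203 with Slc43a1-201, and Chid1-209 with Chid1-207. Of these 12 transcripts, 7 had no stretch of 31 bases of their own among the listed transcripts, namely both of Gpatch2, Kmt5b and Chid1 as well as Exosc10-201, compared with 10 of all 48. For Gpatch2-208 every base lies in Gpatch2-202, and for Chid1-207 and Chid1-209 no base differs in this release. The release that the authors used is not given in the sources used here, so the sequences they indexed were not compared.

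**Figure D1:**
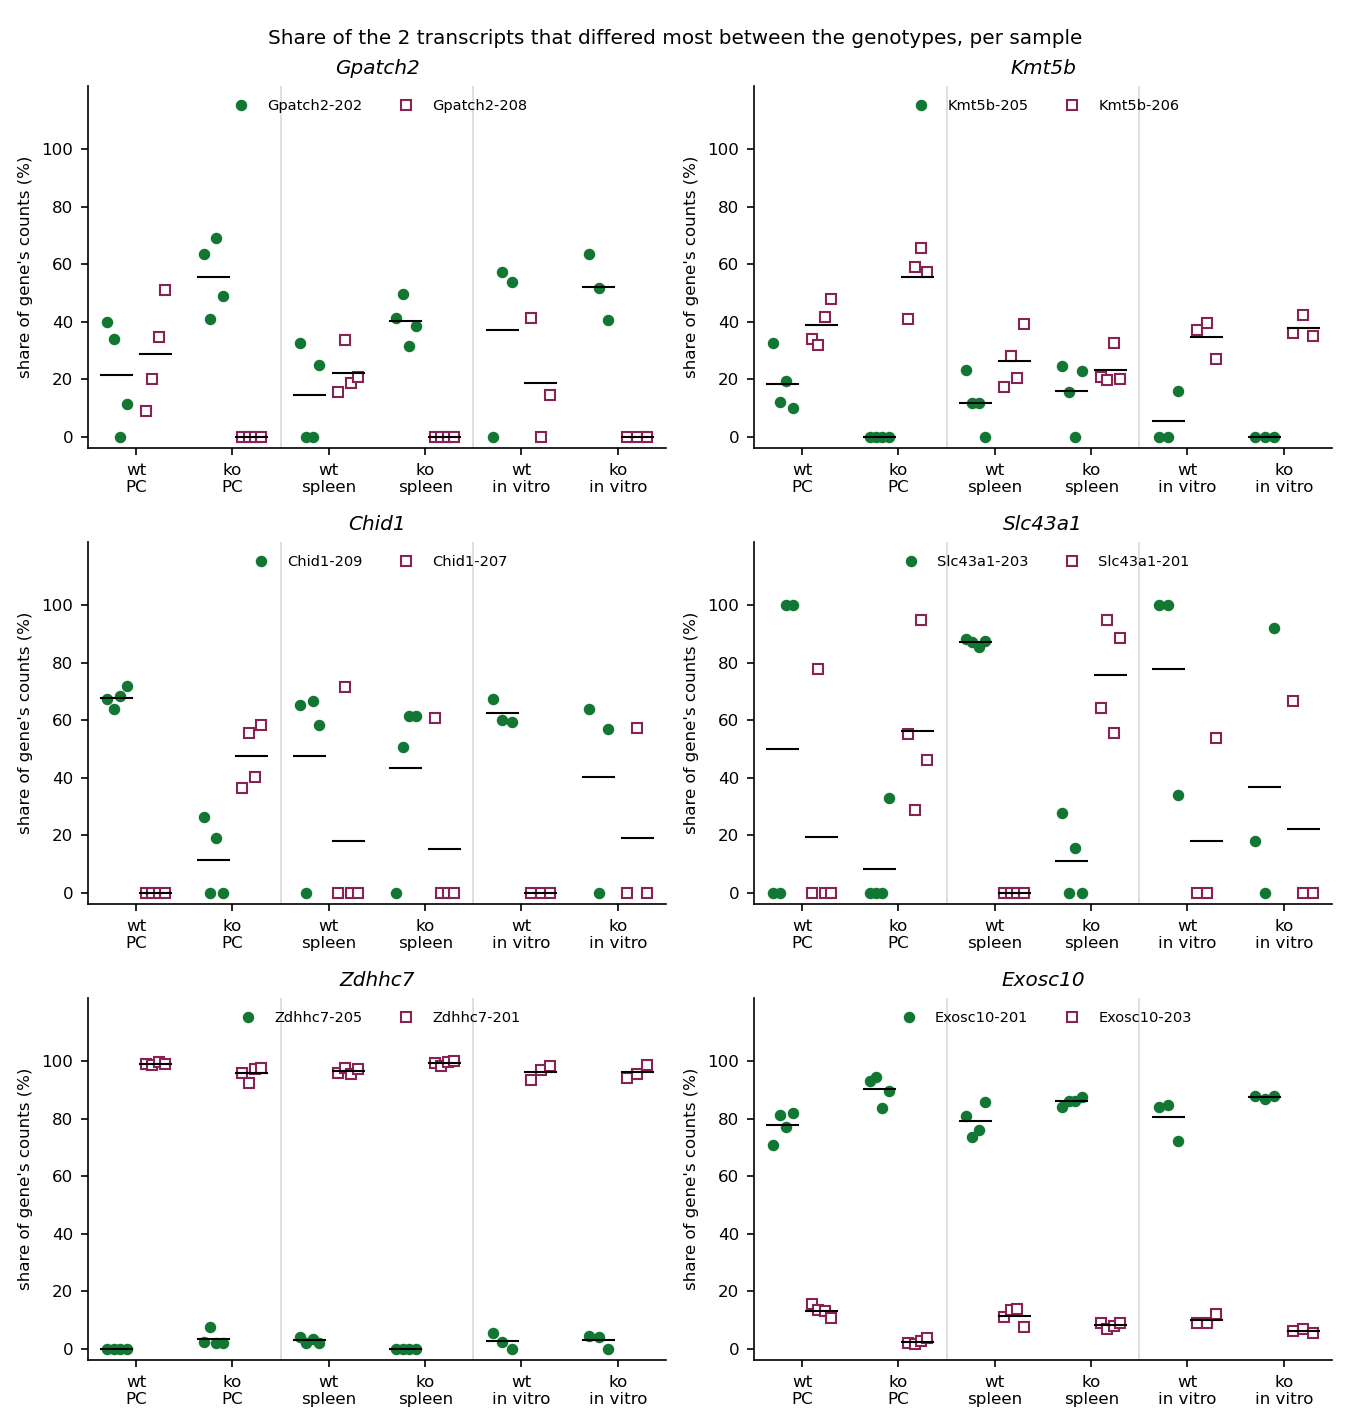
Share of the leading transcript and of its partner in the counts of their gene (percent, vertical axis) in each of the 22 libraries, 1 panel per gene, with the libraries grouped by compartment and genotype and a line at the mean of each group. Gpatch2-208 sits at 0 in all NFKBIE-ko libraries, and in Chid1 the share moves wholly from one transcript to the other in single libraries of each compartment.

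Gpatch2 was lower in NFKBIE-ko in the PC and the spleen, both as a gene and in the sum of transcripts that reach its last exon. Its summed level was 21.2, 18.8, 21.9 and 20.5 CPM in the PC of NFKBIE-ko and 41.1, 37.2, 40.3 and 34.5 CPM in that of NFKBIE-wt (replicates in order, here and below). In the spleen it was 27.8, 27.6, 23.9 and 24.8 CPM against 35.4, 38.0, 48.4 and 40.1 CPM. The genotypes did not overlap at either site, and the log2 fold changes were -0.90 (standard error, SE, 0.09) and -0.66 (SE 0.13). In culture the level was 30.1, 25.7 and 30.3 CPM in NFKBIE-ko and 55.1, 27.8 and 44.8 CPM in NFKBIE-wt, at a log2 fold change of -0.58 (SE 0.25). There the library labelled NFKBIE-wt replicate 2 lay within the range of NFKBIE-ko. Without replicate 3 the NFKBIE-wt cultures averaged 41.5 CPM, and replicate 1, the only one left without replicates 2 and 3, had 55.1 CPM.

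Within Gpatch2, the contained transcript Gpatch2-208 was listed at 0 in all 11 NFKBIE-ko libraries and above 0 in 10 of 11 NFKBIE-wt libraries. Its share in NFKBIE-wt was 8.71, 19.9, 34.8 and 51.1% in the PC, 15.6, 33.4, 18.6 and 20.6% in the spleen and 41.4, 0 and 14.6% in culture. The canonical Gpatch2-202 held 63.5, 40.8, 69.2 and 48.9% in the PC of NFKBIE-ko and 39.9, 33.8, 0 and 11.2% in that of NFKBIE-wt. In the spleen the same transcript held 41.3, 49.6, 31.5 and 38.4% against 32.5, 0, 0 and 24.8%, where one NFKBIE-wt spleen lay within the range of NFKBIE-ko. Gpatch2-202 was listed at 0 in 4 of 11 NFKBIE-wt libraries, a wider scatter than in NFKBIE-ko, where it was never at 0. In culture it held 63.5, 51.8 and 40.5% in NFKBIE-ko and 0, 57.3 and 53.7% in NFKBIE-wt. The NFKBIE-wt values within the range of NFKBIE-ko belonged to replicates 2 and 3, which stood apart. Against NFKBIE-wt replicate 1 alone, the difference was 51.9 percentage points.

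Summed together, the 3 nested transcripts Gpatch2-202, Gpatch2-206 and Gpatch2-208 took nearly the same share in both genotypes in the PC. In the spleen and in culture their mean share was lower in NFKBIE-ko, with differences of -8.48 and -8.47 percentage points. In the PC they held 55.6% ± 13.0 (SD, n = 4) in NFKBIE-ko and 55.6% ± 7.78 (SD, n = 4) in NFKBIE-wt, in the spleen 54.0% ± 5.89 (SD, n = 4) and 62.5% ± 2.95 (SD, n = 4), and in culture 57.9% ± 5.83 (SD, n = 3) and 66.4% ± 10.6 (SD, n = 3). The genotypes overlapped at all 3 sites. Gpatch2-204 ends in the same last exon as the nested transcripts, and the others end earlier. The 4 transcripts that reach the last exon (Gpatch2-202, Gpatch2-204, Gpatch2-206 and Gpatch2-208) summed to 15.6 ± 1.35 CPM (SD, n = 4) in the PC of NFKBIE-ko and 34.2 ± 2.78 CPM (SD, n = 4) in that of NFKBIE-wt, and to 18.7 ± 2.08 and 35.4 ± 5.95 CPM (SD, n = 4 each) in the spleen, without overlap. The 4 that end earlier were not lower in NFKBIE-ko, with 4.99 ± 0.226 against 4.12 ± 0.426 CPM (SD, n = 4 each) in the PC, where all NFKBIE-ko libraries lay above, and 7.35 ± 0.854 against 5.11 ± 1.49 CPM (SD, n = 4 each) in the spleen, where the genotypes overlapped. In culture the transcripts that reach the last exon had 21.3 ± 2.41 and 37.0 ± 14.3 CPM (SD, n = 3 each), with overlap, and those that end earlier 7.40 ± 0.502 and 5.66 ± 0.786 CPM (SD, n = 3 each), again with all NFKBIE-ko libraries above.

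**Figure D2:**
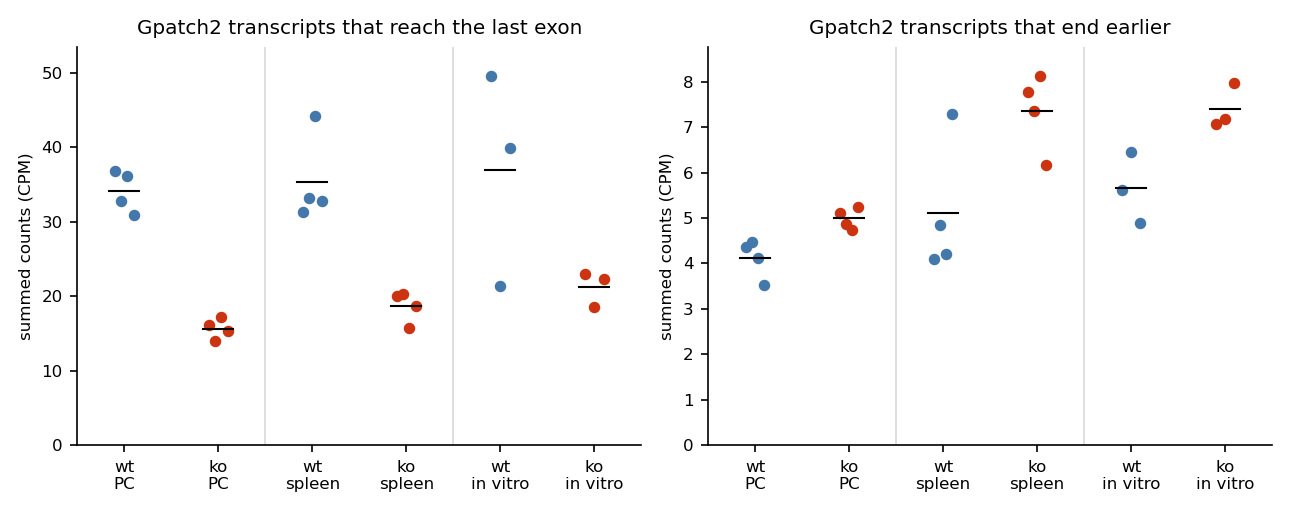
Summed level of the 4 Gpatch2 transcripts that reach the last exon and of the 4 that end earlier (CPM, vertical axis from 0) in each library, with a line at the mean of each group. The transcripts that reach the last exon were lower in NFKBIE-ko in the PC (15.6 against 34.2 CPM) and the spleen (18.7 against 35.4 CPM), and those that end earlier were not.

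Of the early-ending transcripts, Gpatch2-203 has 1199 stretches of 31 bases of its own. Its share in the PC was 13.7, 16.4, 12.6 and 13.3% in NFKBIE-ko and 8.12, 6.44, 6.67 and 5.80% in NFKBIE-wt, without overlap. In the spleen it was 14.0, 9.08, 17.0 and 12.9% against 6.37, 5.68, 6.14 and 11.9%, where the one NFKBIE-wt value that reached into the NFKBIE-ko range was replicate 4. Without that library the NFKBIE-wt spleens averaged 6.06% and the genotypes did not overlap. Gpatch2-204, which skips the exon pair, held 12.4, 33.4, 9.23 and 25.5% in the PC of NFKBIE-ko against 40.8, 25.7, 40.8 and 27.5%, with overlap.

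Exosc10 differed little as a gene, while its NMD transcript took a smaller share in NFKBIE-ko. The gene's summed level averaged 89.1 ± 5.12 CPM (SD, n = 4) in the PC of NFKBIE-ko and 98.4 ± 8.66 CPM (SD, n = 4) in that of NFKBIE-wt (log2 fold change -0.15, SE 0.08). In the spleen and in culture the log2 fold changes were 0.13 (SE 0.12, and 0.20 without NFKBIE-wt replicate 4) and 0.13 (SE 0.08). Exosc10-203 held 1.82, 1.48, 2.58 and 3.79% of the gene in the PC of NFKBIE-ko and 15.4, 13.5, 13.0 and 10.6% in that of NFKBIE-wt. All 4 NFKBIE-ko values lay far below all 4 NFKBIE-wt values. In the spleen the shares were 8.78, 6.71, 7.91 and 8.86% against 10.9, 13.5, 13.8 and 7.47%, and the overlap came from the library labelled NFKBIE-wt replicate 4. Without it the NFKBIE-wt spleens averaged 12.7% ± 1.62 (SD, n = 3) against 8.06% ± 1.00 (SD, n = 4) in NFKBIE-ko and did not overlap with them. In culture the shares were 6.25, 6.96 and 5.56% against 8.93, 8.95 and 11.9%, also without overlap. Exosc10-203 has 88 stretches of 31 bases of its own and was above 0 in all 22 libraries, unlike the leading transcripts of the other genes.

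The coding transcript Exosc10-201 held 93.0, 94.6, 83.6 and 89.7% in the PC of NFKBIE-ko and 70.9, 81.3, 77.0 and 82.1% in that of NFKBIE-wt. The 5 listed transcripts of the gene that are not annotated as coding took 8.43% ± 3.43 (SD, n = 4) together in the PC of NFKBIE-ko against 21.3% ± 4.80 (SD, n = 4). In the spleen they took 13.0% ± 1.04 against 19.5% ± 5.23 (SD, n = 4 each), with overlap, and in culture 10.5% ± 0.641 against 17.9% ± 8.31 (SD, n = 3 each), without overlap. Without NFKBIE-wt spleen replicate 4 the NFKBIE-wt spleens took 21.6%, above all NFKBIE-ko spleens. The library labelled NFKBIE-wt replicate 3 took 27.5% in culture, and without it the NFKBIE-wt mean was 13.2%, still without overlap. Among the 2 coding transcripts alone, the share of Exosc10-201 differed between the genotypes by -0.337 percentage points in the PC. The other, Exosc10-202, held 1.32% of the gene on average over the 22 libraries. The share among coding transcripts thus had little room to differ, and nothing is read from it.

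Kmt5b had a transcript that was listed at 0 throughout single groups, while the summed level of the gene and the summed share of the pair with one reading frame overlapped between the genotypes. Kmt5b-205 was listed at 0 in all 4 NFKBIE-ko PC libraries and held 32.5, 12.0, 19.2 and 10.1% in those of NFKBIE-wt. In the spleen it held 24.6, 15.5, 0 and 22.7% in NFKBIE-ko and 23.2, 11.7, 11.5 and 0% in NFKBIE-wt, where the 0 belonged to replicate 4. Without that library the means were 15.7% and 15.5%. In culture it was at 0 in all NFKBIE-ko libraries and at 0, 0 and 15.8% in NFKBIE-wt, where the value above 0 belonged to the library labelled replicate 3. Kmt5b-205 was thus above 0 in 8 of 11 NFKBIE-wt and 3 of 11 NFKBIE-ko libraries. Its near copy Kmt5b-206 held 40.8, 59.0, 65.5 and 57.2% in the PC of NFKBIE-ko and 34.0, 31.9, 41.7 and 47.8% in that of NFKBIE-wt, with overlap.

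The sum of the pair, which encodes a single protein, was 55.6% ± 10.5 (SD, n = 4) in the PC of NFKBIE-ko and 57.3% ± 9.60 (SD, n = 4) in that of NFKBIE-wt. In the spleen it was 39.0% ± 5.99 and 37.8% ± 3.93 (SD, n = 4 each), and in culture 37.8% ± 4.05 and 39.8% ± 2.95 (SD, n = 3 each), with overlap everywhere. Kmt5b-213, which lacks the 69-base coding exon and has 28 stretches of 31 bases of its own, held 26.9% ± 7.43 and 26.8% ± 5.94 (SD, n = 4 each) in the PC. In culture it held 28.1, 27.3 and 30.1% in NFKBIE-ko and 36.7, 36.7 and 35.2% in NFKBIE-wt, without overlap, and without replicate 3 the NFKBIE-wt mean was 36.7%. The early-ending Kmt5b-204 had 1414 such stretches and showed 22.4, 18.2 and 21.3% against 18.2, 15.4 and 9.88% in culture, without overlap, and without replicate 3 the NFKBIE-wt mean was 16.8% against 20.7% in NFKBIE-ko. The gene's summed level gave log2 fold changes of -0.25 (SE 0.11) in the PC, -0.23 (SE 0.16) in the spleen and -0.25 (SE 0.20) in culture, and the genotypes overlapped at each site. The value in culture was -0.012 without the library labelled NFKBIE-wt replicate 3. With each library left out in turn, the value in the spleen ranged from -0.41 to -0.13.

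Zdhhc7 was made up almost wholly of its coding transcript, and the small share of its retained intron transcript lay in opposite directions in the PC and the spleen. In the PC, Zdhhc7-205 held 2.21, 7.47, 2.03 and 1.8% in NFKBIE-ko and was listed at 0 in all 4 NFKBIE-wt libraries. In the spleen it was listed at 0 in all 4 NFKBIE-ko libraries and held 4.15, 2.01, 3.24 and 1.84% in NFKBIE-wt. In culture the shares were 4.49, 4.14 and 0% in NFKBIE-ko and 5.49, 2.44 and 0% in NFKBIE-wt, with overlap. Over all sites the transcript was above 0 in 6 of 11 libraries of either genotype. The library labelled NFKBIE-wt spleen replicate 4 had 1.84%, and without it the NFKBIE-wt spleens averaged 3.13%. Zdhhc7-201 held between 92.3 and 100.0% in every library, and the gene's summed level had log2 fold changes of -0.04 (SE 0.09) in the PC, -0.12 (SE 0.12) in the spleen and -0.04 (SE 0.09) in culture.

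Slc43a1 differed in which first exon its counts were given to, above all in the spleen, and its counts were low. In the spleen, Slc43a1-201 held 64.1, 94.8, 55.4 and 88.7% in NFKBIE-ko and was listed at 0 in all 4 NFKBIE-wt libraries. Slc43a1-203 held 27.8, 0, 15.4 and 0% in the spleen of NFKBIE-ko and 88.3, 87.1, 85.5 and 87.5% in that of NFKBIE-wt. Neither transcript overlapped between the genotypes there, and they do have bases of their own, 545 and 219 stretches of 31 bases. The gene's summed level in these spleens was 12.8, 8.39, 9.64 and 10.6 CPM in NFKBIE-ko and 3.10, 9.17, 5.32 and 0.307 CPM in NFKBIE-wt. The lowest value, of the library labelled replicate 4, stands for 8 counts, and without it the NFKBIE-wt spleens averaged 5.86 CPM and 87.0% of Slc43a1-203.

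In the PC, Slc43a1 had 5.03, 3.17, 3.27 and 2.68 CPM in NFKBIE-ko and 0.0407, 0.720, 0.592 and 0.565 CPM in NFKBIE-wt, where no library had more than 18 counts of the gene, so that shares could not be told there. The NFKBIE-ko libraries lay above at a log2 fold change of 2.87 (SE 0.48). Their share of Slc43a1-201 was 55.3, 28.8, 94.7 and 46.3%, that of Slc43a1-202 34.8, 66.2, 0 and 14.9% and that of Slc43a1-203 0, 0, 0 and 32.8%, so that no first exon led in all 4. In culture the gene had 2.88, 2.09 and 3.09 CPM in NFKBIE-ko and 0.117, 0.722 and 12.7 CPM in NFKBIE-wt. Its leading transcript changed from library to library among the NFKBIE-ko cultures, with 66.7% in Slc43a1-201, 96.4% in Slc43a1-202 and 92.1% in Slc43a1-203 in replicates 1, 2 and 3. The log2 fold change in culture was -0.77 (SE 1.37) with all libraries and 2.66 without the library labelled NFKBIE-wt replicate 3, whose 12.7 CPM set the direction. The short Slc43a1-206 held 7.47% of the gene on average over the 22 libraries. Its largest difference in mean share between the genotypes was 27.0 percentage points, in the PC, with NFKBIE-wt higher. There NFKBIE-wt replicate 1 had 1 count of the gene, which was given to Slc43a1-206. Both this difference and the average over the libraries rest in part on that count.

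Chid1 showed the largest difference in share in the PC, between transcripts without a differing base. Chid1-207 held 36.4, 55.7, 40.0 and 58.5% in the PC of NFKBIE-ko and was listed at 0 in all 4 NFKBIE-wt libraries. Chid1-209 held 26.3, 0, 19.1 and 0% in the PC of NFKBIE-ko and 67.4, 63.7, 68.5 and 71.7% in that of NFKBIE-wt. Outside the PC, Chid1-207 was above 0 in 3 libraries, at 60.8% in NFKBIE-ko spleen replicate 1, 71.5% in NFKBIE-wt spleen replicate 2 and 57.2% in NFKBIE-ko in vitro replicate 2. In each of these 3, Chid1-209 was listed at 0. Over the 22 libraries exactly 1 transcript of the pair was above 0 in 20, and both in 2.

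Summed, Chid1-207 and Chid1-209 held 59.0% ± 2.91 (SD, n = 4) in the PC of NFKBIE-ko and 67.8% ± 3.30 (SD, n = 4) in that of NFKBIE-wt, which did not overlap. In the spleen the sum was 58.6% ± 5.26 and 65.5% ± 5.40 (SD, n = 4 each) and in culture 59.4% ± 4.00 and 62.3% ± 4.40 (SD, n = 3 each), with overlap. The overlap in the spleen came from the library labelled NFKBIE-wt replicate 4, at 58.5%. The other NFKBIE-wt spleens held 65.2, 71.5 and 66.7%, above all NFKBIE-ko spleens (50.8 to 61.5%). The NMD transcript Chid1-210 held 18.2% ± 5.79 and 13.0% ± 3.95 (SD, n = 4 each) in the PC, with overlap. Chid1-205 held 20.4% on average over the 22 libraries, and its mean differed by at most 5.56 percentage points between the genotypes at a site. In culture its share in all NFKBIE-ko libraries lay above that in NFKBIE-wt. The gene as a whole had 22.3, 23.1, 21.2 and 21.0 CPM in the PC of NFKBIE-ko and 18.9, 15.4, 15.4 and 16.6 CPM in that of NFKBIE-wt, without overlap and with a log2 fold change of 0.39 (SE 0.09). The log2 fold changes in the spleen and in culture were 0.13 (SE 0.19) and -0.01 (SE 0.25), with overlap. The former was 0.31 without NFKBIE-wt spleen replicate 4, and the latter -0.17 without NFKBIE-wt replicate 3 and -0.49 against NFKBIE-wt replicate 1 alone.

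**Figure D3:**
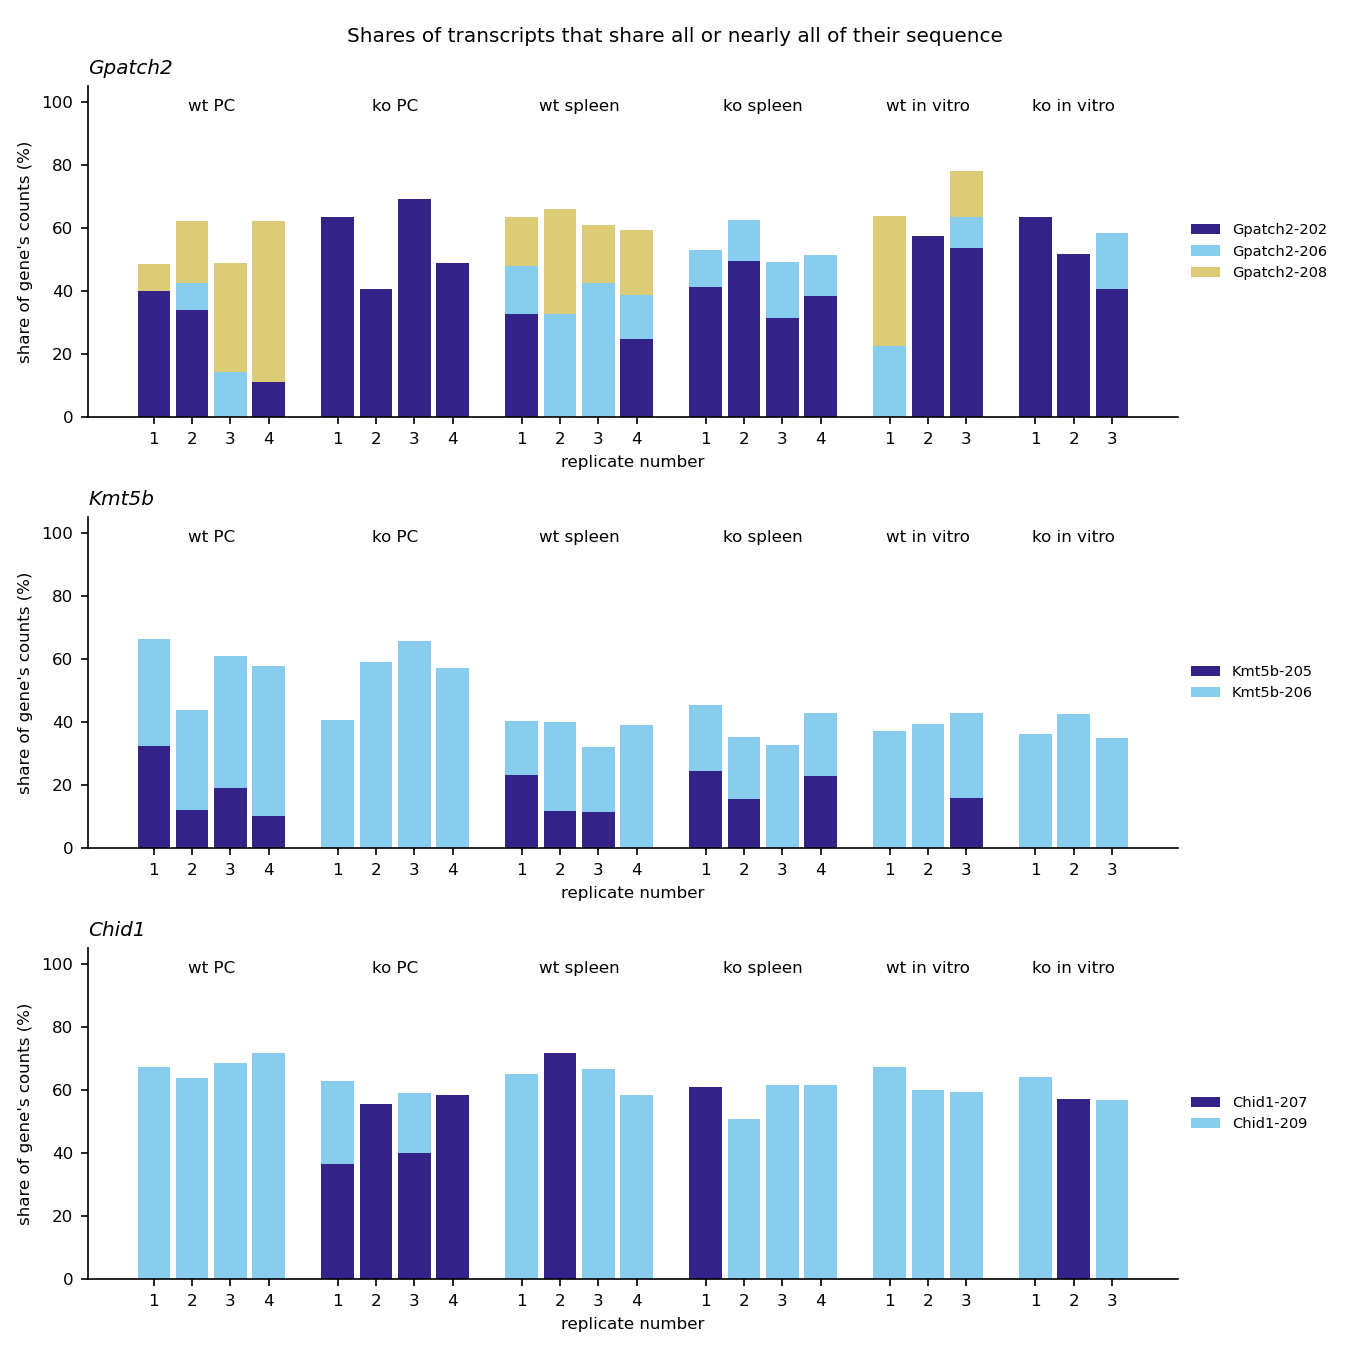
Shares of the Gpatch2 transcripts of which one is contained in the others, of the Kmt5b pair with the same protein and of the Chid1 pair with the same sequence (percent of the gene, stacked bars from 0), in each of the 22 libraries. In Gpatch2 and Chid1 the height of a stack varied less than its parts. In Kmt5b the stack, at 32.0 to 66.5%, did not vary less than Kmt5b-205. In Chid1 a single transcript filled the stack in 20 of 22 libraries.

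The other 28 transcripts of the 6 genes each held between 0.0468 and 7.20% of their gene on average over the 22 libraries. The genotypes did not overlap in the share of 13 of the 48 transcripts in the PC, 6 in the spleen and 9 in culture. Among all 52661 transcripts of genes with more than 1, the proportion was 6.48%, 4.26% and 8.9%. In the summed level the genotypes did not overlap for 3 of the 6 genes in the PC (41.1% of all 12577 genes), 1 in the spleen (15.9%), which was Gpatch2, and 1 in culture (18.7%), which was Exosc10. Differentially expressed transcripts (DETs) were those for which edgeR's quasi-likelihood test gave an adjusted p under 0.05 (Benjamini-Hochberg, all transcripts) and whose absolute log2 fold change exceeded 1. In the PC, 6 of 25 member transcripts that passed the filter on low counts were DETs, where 6.05% of all tested transcripts were. In the spleen 3 of 28 were DETs (0.312% of all), and in culture 0 of 24, where 0 of 33361 transcripts passed (0.0% of all, 904 at an unadjusted p under 0.05, 224 with DESeq2). No member had a DET in each direction within one site, which 6 of 12492 genes (0.048%) had in the PC. A test of transcript usage, which compares each transcript with the rest of its gene, called 4 of 24 in the PC (0.299% of all), 2 of 28 in the spleen (0.0626%) and 0 of 23 in culture (0.17%). Summed per gene, 3 of the 6 passed in the PC (43.4% of all genes), 1 in the spleen (5.48%) and 0 in culture (0.0427%). The genes were picked on this contrast, so these counts follow from the choice and nothing is read from them.

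**Figure D4:**
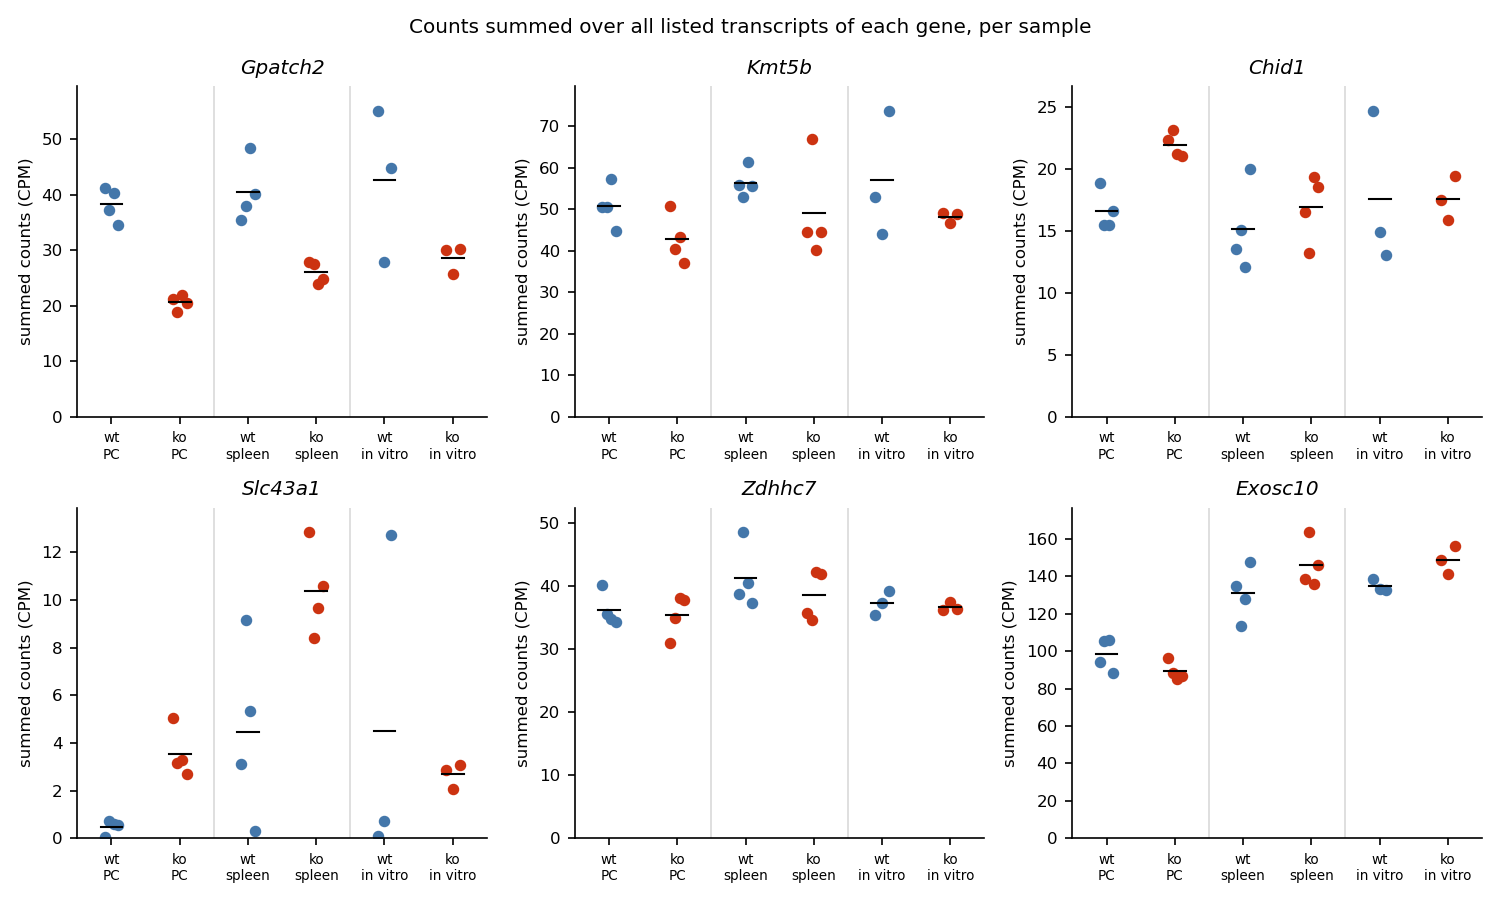
Summed level of each gene (CPM, vertical axis from 0) in each of the 22 libraries, grouped by compartment and genotype, with a line at the mean of each group. Gpatch2 was lower in NFKBIE-ko in the PC and the spleen, Chid1 and Slc43a1 were higher in the PC, and Exosc10, Kmt5b and Zdhhc7 overlapped between the genotypes in the PC and the spleen.

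The sites were compared within each genotype, a contrast that the choice of genes did not use directly. It shares libraries with that choice and, for transcript usage, the values listed at 0. Exosc10 was lower in the PC than in the spleen in both genotypes and Slc43a1 as well. In NFKBIE-ko, Exosc10 fell from 145.9 ± 12.6 CPM (SD, n = 4) in the spleen to 89.1 ± 5.12 CPM (SD, n = 4) in the PC, a log2 fold change of -0.71 (SE 0.09, edgeR adjusted p = 7.69e-05 over all genes). In NFKBIE-wt, the values were 130.9 ± 14.3 and 98.4 ± 8.66 CPM (SD, n = 4 each), with a log2 fold change of -0.40 (SE 0.11, edgeR adjusted p = 0.0220). Over the libraries left out in turn, the adjusted p of Exosc10 ranged from 0.00777 to 0.0617 in NFKBIE-wt and was 0.0313 without the library labelled spleen replicate 4. It was above 0.05 without PC replicate 1 (0.0617), PC replicate 4 (0.0587) or spleen replicate 1 (0.0552). With the replicate number as a block, the NFKBIE-wt calls of Exosc10 and Slc43a1 were both lost (edgeR adjusted p = 0.0855 and 0.108).

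For Slc43a1, the log2 fold change of the PC against the spleen was -1.55 (SE 0.22, edgeR adjusted p = 0.000246) in NFKBIE-ko, where the gene also was higher in the spleen than in culture at 1.92 (SE 0.21, edgeR adjusted p = 0.000292). In NFKBIE-wt, the log2 fold change of Slc43a1 in the PC against the spleen was -3.20 (SE 0.96, edgeR adjusted p = 0.0357). That call was lost without any single library other than spleen replicate 4 (edgeR adjusted p = 0.0604 to 0.0833), and without spleen replicate 4 the adjusted p was 0.00219. In NFKBIE-ko, Gpatch2 was lower in the PC than in the spleen by -0.34 (log2, SE 0.09, edgeR adjusted p = 0.0114) and Chid1 was higher by 0.38 (log2, SE 0.12, edgeR adjusted p = 0.0236). The Chid1 call was lost without PC replicate 2 (edgeR adjusted p = 0.0584) or spleen replicate 1 (0.0533), and the range over the libraries left out was 0.0146 to 0.0584. With all 22 samples in 1 fit, which share 1 estimate of the spread, the NFKBIE-ko calls of Slc43a1 (edgeR adjusted p = 0.159 for the PC against the spleen and 0.155 for the spleen against culture), Gpatch2 (0.0755) and Chid1 (0.0851) were lost and that of Exosc10 was kept (2.42e-06). In all, 4 of 6 genes passed between PC and spleen in NFKBIE-ko, where 59.8% of all genes did, and 2 of 6 in NFKBIE-wt, where 28.5% did. Between spleen and culture 1 of 6 passed in NFKBIE-ko (38.8% of all) and 0 of 6 in NFKBIE-wt, where 0 of 12349 genes passed in edgeR with all libraries included (133 at an unadjusted p under 0.05, 1 gene with DESeq2). Whether these site differences differed between the genotypes was not tested.

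Transcript usage between the sites was called for 3 transcripts of these genes. Gpatch2-206, which differs from the canonical transcript in its first exon, was listed at 0 in all 4 PC libraries of NFKBIE-ko and held 11.6, 13.0, 17.7 and 13.0% in the spleens. In NFKBIE-wt the transcript held 0, 8.59, 14.2 and 0% in the PC and 15.4, 32.7, 42.4 and 13.9% in the spleen, and the usage test did not call it. Zdhhc7-205 was called in both genotypes between PC and spleen, larger in the spleen of NFKBIE-wt and in the PC of NFKBIE-ko, and Kmt5b-205 between the spleen and the culture of NFKBIE-ko, where it was larger in the spleen. No p is given for the 3 transcripts, since the libraries and shares listed at 0 are among those that chose the genes. For the same reason, it is no support that the Zdhhc7-205 and NFKBIE-ko Gpatch2-206 calls held without any single library. With the replicate number as a block, Zdhhc7-205 was no longer called in NFKBIE-wt. Without NFKBIE-ko spleen replicate 1, 2 or 4, Kmt5b-205 was no longer called. The members called were 1 of 25 tested in NFKBIE-wt and 2 of 25 in NFKBIE-ko between PC and spleen, beside 0.156% and 0.73% of all, and 0 of 28 and 1 of 26 between spleen and culture, beside 0.0993% and 0.563%. These counts follow in part from the choice of genes, and nothing is read from them. The usage test gave somewhat more false calls than its threshold in simulated counts.

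Genes of the same pathways were read from fixed lists in the comparison of NFKBIE-ko with NFKBIE-wt, summed per gene. In the PC most of those that passed were lower in NFKBIE-ko. Among the partners of Exosc10 in RNA decay, 0 rose and 4 of 19 fell, led by Dis3, the other catalytic subunit of the exosome (57.3 ± 4.37 against 93.0 ± 6.91 CPM, SD, n = 4 each, log2 fold change of -0.70, SE 0.08, edgeR adjusted p = 6.01e-05). Of the G-patch proteins and their helicase, 0 rose and 7 of 14 fell, among them Gpatch1 (-0.73, SE 0.08, edgeR adjusted p = 4.24e-05) and the helicase Dhx15 (-0.45, SE 0.07, edgeR adjusted p = 0.000403). Splicing regulators counted 1 of 36 higher, Hnrnpll (1.26, SE 0.19, edgeR adjusted p = 0.000355), and 13 lower, among them Hnrnpd (-0.55) and Srsf6 (-0.46). Of the H4 lysine 20 genes, Kmt5a and Kmt5c fell (-0.33 and -0.24) and 3 of 5 did not pass. Palmitoyltransferases counted 1 of 19 higher, Zdhhc9 (0.45), and 4 lower, led by Zdhhc4 (-0.84, SE 0.08, edgeR adjusted p = 1.81e-05). All 8 amino acid carriers passed, with Slc43a2, a close relative of Slc43a1, and Slc7a8 higher (1.07 and 1.47) and 6 lower, among them Slc1a5 (-0.57).

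The median log2 fold change in the PC was -0.10 for RNA decay, -0.21 for G-patch proteins, -0.11 for splicing regulators, -0.20 for H4 lysine 20, 0.10 for palmitoyltransferases and -0.43 for amino acid carriers, beside -0.01 for all genes tested, of which 22.5% rose and 20.9% fell. In the spleen Zdhhc14 and Mbnl2 were the genes of these lists that passed, both lower, and in culture none did by edgeR, where 5 of 11722 genes passed in all. The myeloid, T-cell and granulocyte markers that differed in the PC lie beside all these values, and their part was not tested.

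Over the 22 libraries, the transcripts of other genes whose share was most like that of a leading transcript were Srsf5-201 for Exosc10-201 (Pearson r = 0.858), Supt4a-203 for Kmt5b-205 (0.813), Septin9-204 for Slc43a1-203 (0.780), Ess2-205 for Gpatch2-202 (0.731), Sass6-206 for Chid1-209 (0.723) and Rnaseh1-201 for Zdhhc7-205 (0.673). Each is the highest of 13968 candidates, the points share their libraries and groups, and the values are a description.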

How the data were processed

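RNA of 22 samples was sequenced as paired-end reads by the authors, who estimated the abundance of transcripts with SALMON v1.8 on an index with decoys from GRCm39 and deposited the expected counts per transcript without normalization. The release of the annotation is not given in the sources used here. Every one of the 62492 transcripts listed exceeded 0 in 5 or more samples. Of these, 62147 matched GENCODE M39 and the others held 0.619% of the counts. Of the values, 69.5% were not whole and all were rounded. The columns of all samples were used.

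The 6 genes, the gene lists and the tests were chosen with earlier results of these data known. A transcript was described singly if it held at least 10% of its gene over all samples or differed by at least 10 percentage points between the genotypes at a site, or if it led its gene. For each leading transcript, the one of another gene with the highest correlation is named, and for each gene list up to 3 genes with the smallest adjusted p and, for direction, those counted. Groups were taken from the titles. Pairs of groups were tested with edgeR 4.0.16 in R 4.3.3 (filter on low counts, TMM, robust quasi-likelihood), with counts per transcript, summed per gene, and as usage within genes, and with Benjamini-Hochberg adjustment over all features. In all 30 comparisons of replicates the counts were further apart than sampling alone gives (chi-square per degree of freedom of 7.12 to 213). The residuals of samples with the same number correlated at -0.334 to 0.390, so samples were treated as unpaired. The p-values measure the spread between samples that may share mice, a mouse of first passage and an edited population. Estimated counts carry the error of dividing reads, so no counting limit is given for values listed at 0. Shares, junctions and stretches of 31 bases were computed in Python 3.11.15, figures with matplotlib 3.10.9. The scripts were tested on simulated data. Alternatives were DESeq2 1.42.0, other size factors, no filter, the replicate number as a block, all 22 samples in 1 fit, shares per length or of coding transcripts, and each library left out. The sums of nested transcripts, the split of Gpatch2 by its end and the fits without the 3 libraries that stood apart were added after the data were seen.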

Additional observations from a re-analysis of the deposited data

Results flagged for a closer look

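The rule used here is taken to flag about 1 in 20 groups by chance. Most of the values below are shares that depend on each other, are often at 0 and belong to genes chosen on them. Nothing is therefore read from the number flagged. In 8 of 65 groups of 4 samples, a single library lay far from the other 3. These were the share of Slc43a1-203 in NFKBIE-ko PC replicate 4 (32.8%, the others at 0), of Zdhhc7-205 in NFKBIE-ko PC replicate 2 (7.47%), of Slc43a1-201 in NFKBIE-wt PC replicate 2 (77.8%, of 18 counts of the gene), of Kmt5b-206 in NFKBIE-ko spleen replicate 3 (32.7%), of Chid1-207 in NFKBIE-ko spleen replicate 1 (60.8%) and in NFKBIE-wt spleen replicate 2 (71.5%), of Chid1-209 in the latter (0%), and the summed level of Kmt5b in NFKBIE-ko spleen replicate 2 (66.8 CPM).

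The differences in Zdhhc7 lay in opposite directions at 2 sites. The share of Zdhhc7-205 in NFKBIE-ko minus that in NFKBIE-wt was 3.38 percentage points in the PC and -2.81 in the spleen, with all libraries of a genotype on one side each time, and that of Zdhhc7-201 was -3.41 and 2.78. The difference between the sites was not tested.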

How the results depend on the processing

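Of 1743 alternative values for 143 results, 1648 kept their direction and their side of the threshold or stayed within the replicate spread, 59 moved by more, 20 lost their call, 13 gained one and 3 turned direction. The cause of these changes was not tested unless it follows from how the value is built.

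Summing the leading transcript with its partner took away most of the difference in share. The partner was chosen as the transcript that differed most in the opposite direction. A smaller difference follows from that choice, and nothing is read from it. In percentage points the difference became 5.73 for Gpatch2 in the PC and 3.80 in the spleen, and -1.62 for Kmt5b in the PC. For Chid1 in the PC it became -8.84, for Slc43a1 in the spleen -0.542 and for Exosc10 in the PC 1.70. For Zdhhc7 it became -0.0294 in the PC, where it turned direction, and -0.0323 in the spleen. The Zdhhc7 pair held 98.9 to 99.4% of its gene on average in every group, so its sum could hardly differ. Shares computed per length gave -28.6 for Chid1-209 in the PC and 10.9 and -9.48 for Zdhhc7-205 in the PC and the spleen. Among coding transcripts alone, Exosc10-201 differed by -0.337 in the PC and -0.320 in culture, both turned, and by 0.441 in the spleen. The only other coding transcript held 1.32% of the gene on average, so these values had little room to differ between the genotypes.

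With libraries left out, the values in culture ranged from -3.54 to 51.9 percentage points for Gpatch2-202 and from -2.62 to 1.67 for Zdhhc7-205, and for the summed level from -0.49 to 0.32 (log2) for Chid1, -1.34 to 4.46 for Slc43a1 (2.66 without NFKBIE-wt replicate 3) and -0.0712 to 0.0492 for Zdhhc7. The number of the 6 genes called between PC and spleen of NFKBIE-wt ranged from 0 to 2, and between its spleen and culture from 0 to 1. The number of their transcripts called by usage ranged from 2 to 4 between PC and spleen of NFKBIE-ko, from 0 to 3 between its spleen and culture, and from 0 to 1 between spleen and culture of NFKBIE-wt.

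Whether samples with the same replicate number share a mouse is not given in the sources used here. With the replicate number as a block, 0 genes and 0 transcripts of the 6 were called between PC and spleen of NFKBIE-wt. The edgeR adjusted p there was 0.0855 for Exosc10 and 0.108 for Slc43a1. The block changed no other count of members called between sites. With all 22 samples in 1 fit, 1 gene was called between PC and spleen of NFKBIE-ko, and 0 genes and 2 transcripts between its spleen and culture.

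Over all features, the DETs numbered 931 with the replicate block and 3264 with DESeq2 in the PC. In the spleen they numbered 0 with the block, 915 with DESeq2 and 257 without NFKBIE-wt replicate 4, and the genes 90, 1635 and 1516. In culture, DESeq2 gave 224 DETs and 228 genes and the block 0 genes, whereas leaving out NFKBIE-wt replicate 3 gave 9 genes. Leaving out replicates 2 and 3 gave 248 DETs and 3951 genes, with 1 NFKBIE-wt library left, which is assumed to vary like the NFKBIE-ko cultures. Usage calls numbered 237, 113 and 82 in PC, spleen and culture without the filter on low counts, 9 in the spleen and 18 in culture with the block, 58 when NFKBIE-wt spleen replicate 4 was left out, and in culture 83 when NFKBIE-wt replicate 3 and 137 when replicates 2 and 3 were left out.

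Estimated counts carry no depth for a single transcript, so a value listed at 0 has no stated limit. 3 or 4 libraries per group, unlabelled sharing of mice and host cells in the PC and spleen limit every comparison.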
